A study of Mus musculus with 8 samples.

Results

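Haem is built from glycine and succinyl-CoA by a chain of enzymes that starts and ends in the mitochondrion, and the 8 genes described here encode enzymes of that chain: Alas1, Alas2, Alad, Uros, Urod, Cpox, Ppox and Fech. Each was taken where a probe set of the array carried that symbol and no other, which gave 8 genes with 1 probe set each, of 16232 genes tested. All 8 passed the filter on low values, a mean over the arrays above 6.14 on the log2 scale. The set was chosen by pathway and selected on the array values of this contrast, because Alas2 and Fech read lower in the mice with induced deletion. The differences between the groups given below for the 8 genes are therefore a description and carry no test.

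The first step makes 5-aminolevulinate and is run by a pair of isoenzymes from separate genes. Alas1 serves nearly all tissues and is held down by haem itself, whereas Alas2, on the X chromosome, is switched on in developing red cells together with the globins. Reticulocytes, the young red cells of blood, still carry RNA for haem synthesis, and brown fat makes haem for its abundant mitochondrial cytochromes. Blood lies next to the aortic endothelium, and perivascular brown fat surrounds the aorta from outside.

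The 8 samples were thoracic aortas of female mice that all carried the tamoxifen-inducible recombinase Cdh5-CreERT2, driven by the promoter of the endothelial gene Cdh5, and Mef2c f/f alleles. From 10 weeks of age, 4 mice (EKO) had 5 daily injections of tamoxifen to delete Mef2c in endothelium, and 4 littermates (control) had 5 of the sunflower seed oil vehicle with 10% ethanol. Aortas were taken on day 14 after the first injection, RNA was flushed out of each lumen with TRIzol, and each sample was 1 aorta on 1 array. Tamoxifen went to the EKO mice alone, so the drug and the deletion cannot be told apart.

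Over the tested genes the median of an array was 8.43 to 8.53, and the pairwise r of arrays across genes, which are not independent replicates, was 0.981 to 0.993. The endothelial genes Pecam1 (18.19 ± 0.03 in control and 18.16 ± 0.06 in EKO arrays, SD, n = 4 each) and Cdh5 (16.37 ± 0.09 and 16.45 ± 0.07) stood far above the medians of the array's negative control probe sets, which were 7.34 to 7.45. Mef2c averaged 9.77 ± 0.11 and 9.75 ± 0.20, a difference of -0.03 (limma adjusted p = 0.946). Its 1 probe set gives a single value for the gene and the labels do not name the deleted exons, so it cannot check the deletion. Of 16232 genes 0 passed limma's adjusted p of 0.05 (smallest 0.478), and 1449 (8.93%) had an unadjusted p under 0.05, 569 of them (3.51%) lower in EKO.

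Alas2 and Fech, the erythroid entry enzyme and the ferrochelatase that puts iron into the porphyrin ring, differed most between the groups. Both read about 1 log2 unit lower in EKO aortas, while the 6 other enzymes differed by at most 0.36. The Alas2 probe set read 14.80, 13.34, 15.15 and 14.33 on control arrays 1 to 4 and 12.94, 13.56, 13.58 and 13.43 on EKO arrays 1 to 4. Control arrays 1, 3 and 4 were above every EKO array, whereas control array 2 lay among them, so the groups overlapped. The group means were 14.40 ± 0.79 and 13.38 ± 0.30 (SD, n = 4), a difference of -1.02 (SE 0.36), or 2.03-fold lower in EKO.

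Fech, the enzyme of the last step, read 13.54, 12.03, 13.72 and 12.85 on control arrays and 12.00, 12.00, 11.98 and 11.84 on EKO arrays. Control array 2 was again at the EKO level, only 0.03 above the highest EKO array, and that gap is all that kept the groups apart. The means were 13.04 ± 0.77 and 11.96 ± 0.08 (SD, n = 4), a difference of -1.08 (SE 0.33), or 2.11-fold lower. Fech thus varied over 1.69 log2 units among control aortas and over 0.16 among EKO aortas. Of the tested genes 98.4% had a smaller SD than Fech in control arrays, and 15.2% had a smaller SD in EKO arrays.

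**Figure D1:**
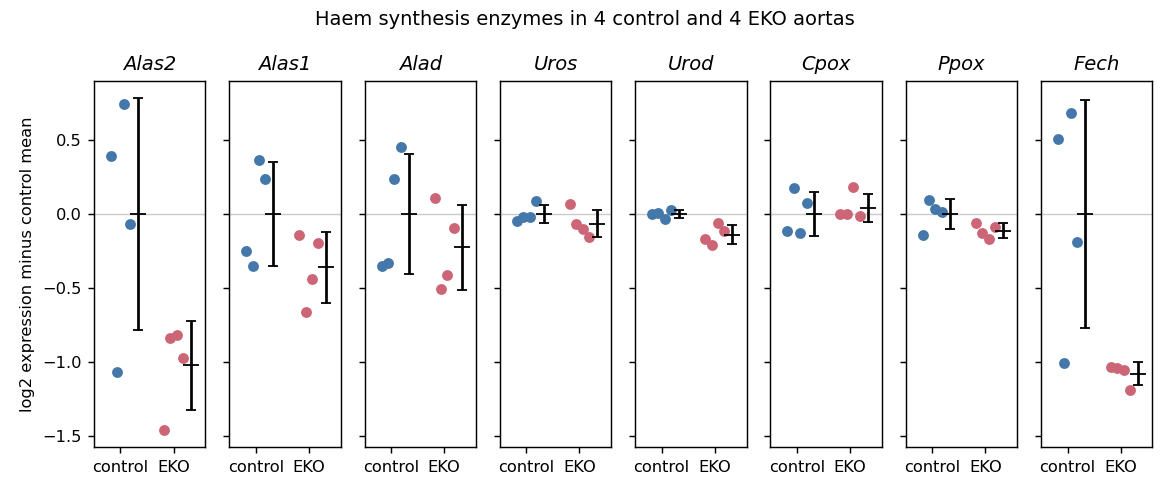
Log2 expression of each enzyme minus its control mean (vertical axis) in 4 control (blue) and 4 EKO (red) aortas, 1 point per aorta, with the group mean and SD as black bars. Alas2 and Fech have means of -1.02 and -1.08 in EKO arrays, and control array 2 lies with the EKO arrays for both, while Uros, Urod, Cpox and Ppox stay within narrow ranges.

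Promoters of both first-step enzymes are shown to set the erythroid gene beside the housekeeping one, and that of Cpox because it also holds GATA letters, which are common in red cell genes. RefSeq promoters (GRCm38.p6) were found for 7 of the 8 genes, as 10 windows, of which 3 are printed, each over the 250 bases before the start on the gene's strand. Capitals mark matches on either strand to GATA letters (GATA with A or T before it and A or G after it), to CCACCC, which KLF factors can bind, and to the MEF2 site. Neighbouring matches may share a base.
Alas2, chrX:150547167-150547416, plus strand: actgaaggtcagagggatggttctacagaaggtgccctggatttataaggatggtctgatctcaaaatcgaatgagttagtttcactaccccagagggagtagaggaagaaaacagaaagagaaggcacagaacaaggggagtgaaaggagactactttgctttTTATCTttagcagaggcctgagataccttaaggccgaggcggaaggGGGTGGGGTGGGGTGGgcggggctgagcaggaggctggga
Alas1, chr9:106247731-106247980, minus strand: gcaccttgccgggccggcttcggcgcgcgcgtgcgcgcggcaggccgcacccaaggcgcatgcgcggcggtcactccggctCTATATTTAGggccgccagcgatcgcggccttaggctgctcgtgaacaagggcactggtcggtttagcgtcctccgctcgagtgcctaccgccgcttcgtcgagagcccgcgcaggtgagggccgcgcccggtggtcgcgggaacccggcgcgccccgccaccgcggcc
Cpox, chr16:58669958-58670207, plus strand: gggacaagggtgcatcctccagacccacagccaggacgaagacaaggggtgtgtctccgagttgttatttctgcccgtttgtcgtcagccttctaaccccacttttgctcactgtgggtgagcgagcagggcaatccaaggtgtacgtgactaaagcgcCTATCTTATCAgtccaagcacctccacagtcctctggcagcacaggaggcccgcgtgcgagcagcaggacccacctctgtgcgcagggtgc
The Alas2 window held 1 GATA match, at -86 to -81 from the start, and 3 CCACCC matches on the opposite strand, in a row from -40 to -25 and sharing 1 base each. Of 32851 promoter windows 26.5% had at least 1 GATA match and 1.8% at least 3 CCACCC matches. Alas2 had 4 CG pairs and 51.2% G and C, whereas the printed Alas1 window had 42 CG pairs and 74.4%, and 99.1% of all windows had fewer CG pairs than that. The other Alas1 window, chr9:106247955-106248204, had 16 CG pairs, 62.4% G and C and 1 CCACCC match, and 74.6% of all windows had fewer CG pairs. The printed Alas1 window held the only MEF2 match among the 10, at -169 to -160, and 2.9% of all windows hold at least 1. Cpox had 2 GATA matches, at -91 to -86 and -86 to -81. One of the Uros windows, chr7:133702501-133702750, had 2 as well, and 6.4% of all windows had at least 2. These matches are letters, not measured binding.

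Alas2 and Fech varied together from aorta to aorta. Over the 8 arrays their Pearson r was 0.958 (Spearman rho 0.62), and after each group's mean was subtracted it was 0.914. Leaving out the 2 arrays most distant from the median of Alas2 gave 0.828. Among the EKO arrays Fech spanned 0.16 log2 units and Alas2 0.64. These correlations, and those below, describe 8 arrays that were normalized together and carry no test.

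Some transcripts of red cells were also high on control arrays 1, 3 and 4 and low on control array 2, and others of the list were not. Of 30 erythroid markers 20 were measured and 11 tested, and the 10 others were not analysed here. Mkrn1, a ubiquitin ligase gene abundant in reticulocytes, read 11.90, 10.90, 12.11 and 11.70 on control arrays and 11.00, 11.30, 11.03 and 11.01 on EKO arrays. Slc4a1, the anion exchanger band 3 of the red cell membrane, read 8.39, 7.76, 9.22 and 8.70 against 7.78, 7.98, 7.43 and 7.48. Control array 2 was the lowest control array for both, as it was for Alas2 and Fech. The r of Mkrn1 was 0.965 with Alas2 and 0.961 with Fech (0.941 and 0.945 within groups), and that of Slc4a1 was 0.868 and 0.893 (0.732 and 0.767 within groups). Bpgm, Tent5c, Bnip3l and Car2 had r of 0.771 to 0.945 with Alas2. The other 5 tested had r of 0.399 (Trim10), 0.346 (Hemgn), -0.084 (Aqp1), -0.207 (Ermap) and -0.264 (Tspo2).

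Differences of the red cell genes between the groups had the sign of those of Alas2 and Fech in 7 of the 11 tested, and none passed limma's threshold. Slc4a1 differed by -0.85 (SE 0.28, adjusted p = 0.524), and Mkrn1 by -0.57 (SE 0.24, adjusted p = 0.550). Bpgm, which makes the 2,3-bisphosphoglycerate that tunes haemoglobin, differed by -0.50 (SE 0.16, adjusted p = 0.516). Tent5c, a poly(A) polymerase, differed by -0.34, the carbonic anhydrase Car2 by -0.42 and the mitophagy receptor Bnip3l by -0.25. The water channel Aqp1, also an endothelial gene, differed by 0.41 and the red cell surface gene Ermap by 0.15. The median over the 11 was -0.25, beside -0.02 over all genes tested. Car2, Ermap, Hemgn, Trim10 and Tspo2 had means no higher than the highest negative control median, so little can be read from their signs. Of the 6 markers above that level 5 were lower in mean, with a median of -0.42.

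**Figure D2:**
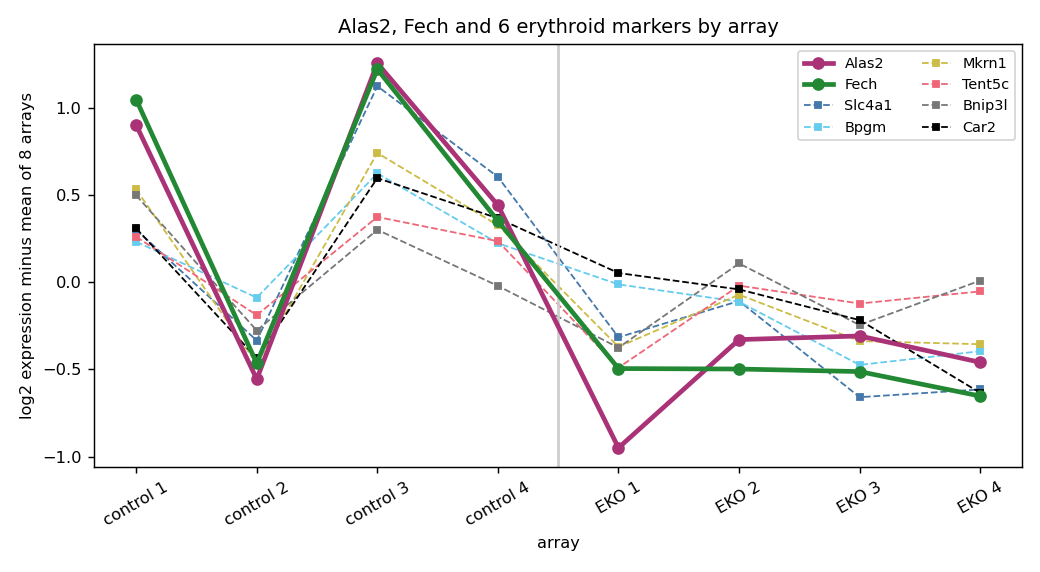
Log2 expression minus the gene's mean over the 8 arrays (vertical axis) for Alas2, Fech and 6 of the 11 tested erythroid markers, those with the highest r with Alas2, by array (horizontal axis); lines only join the values of a gene. Control arrays 1, 3 and 4 lie high and control array 2 low for Alas2, Fech, Slc4a1, Bpgm, Mkrn1, Tent5c and Car2, and the EKO arrays lie low for Alas2 and Fech.

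The mean of the 11 erythroid markers ran from 8.12 to 8.70 in control arrays and from 8.19 to 8.48 in EKO arrays. Its r was 0.879 with Alas2 (rho 0.76) and 0.892 with Fech (rho 0.71), and 0.606 and 0.621 when the 2 arrays most distant from its median were left out. With this mean as a covariate the difference was -0.51 (SE 0.23) for Alas2 and -0.58 (SE 0.18) for Fech. Over the 6 markers above the negative controls r was 0.900 and 0.902, and the differences with their mean as a covariate were -0.41 (SE 0.25) and -0.50 (SE 0.22), a setting chosen after seeing the data. The part of red cell RNA in either difference was not tested. In RNA flushed from whole vessels, fewer cells of a type and less RNA per cell cannot be told apart.

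The genes most like Alas2 over the 8 arrays, by Pearson r among named genes, were Fam220a (0.992), the cyclin D-binding protein gene Ccndbp1 (0.982), Mkrn1, Fech and Tent5c (0.945). Those most like Fech were Fam220a (0.973), Ncoa4 (0.970), the autophagy gene Gabarapl2 (0.967), Mkrn1 and Alas2. Fam220a, first on both lists, differed by -1.17 (SE 0.37, limma adjusted p = 0.513), Ccndbp1 by -0.54 and Gabarapl2 by -0.25. Hbq1a, a theta globin gene named after its values were seen, was the eighth of the Alas2 list (r = 0.940, difference -0.94, limma adjusted p = 0.514). It read 6.91 to 8.31 on control arrays and 6.43 to 7.09 on EKO arrays. The EKO values lie below the negative control medians of 7.34 to 7.45, so little can be read from the difference.

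Alas1, the housekeeping entry enzyme, followed a different pattern. It read 8.27, 8.17, 8.89 and 8.76 on control arrays and 8.38, 7.86, 8.08 and 8.33 on EKO arrays. The groups overlapped, with control arrays 3 and 4 highest and EKO array 2 lowest. The means were 8.52 ± 0.35 and 8.16 ± 0.24 (SD, n = 4), a difference of -0.36 (SE 0.19). Without control array 3 the difference was -0.24.

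Alad, which joins a pair of 5-aminolevulinate molecules into porphobilinogen, read 8.68, 8.70, 9.27 and 9.49 on control arrays and 9.15, 8.53, 8.62 and 8.94 on EKO arrays. The groups overlapped over most of their ranges, and the order of the arrays was nearly that of Alas1. The means were 9.04 ± 0.41 and 8.81 ± 0.29 (SD, n = 4), a difference of -0.23 (SE 0.21). It was -0.08 without control array 4, -0.15 without control array 3, -0.13 without EKO array 2 and -0.34 without control array 1. Alas1 and Alad correlated with r = 0.917 over the 8 arrays (rho 0.95), 0.932 within groups and 0.843 when the 2 arrays most distant from the median of Alad were left out. Alas1 and Alas2, in contrast, had r = 0.600 and 0.342 within groups.

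Alas1 and Alad varied with markers of both fat and fibroblasts. The mean of 12 tested adipocyte markers ran from 8.77 to 10.91 in control arrays and from 8.31 to 10.35 in EKO arrays. Its r was 0.937 with Alas1 (rho 0.98, 0.987 within groups) and 0.934 with Alad (rho 0.90, 0.930 within groups). Leaving out the 2 arrays most distant from its median gave 0.860 and 0.930. The mean of 5 tested fibroblast markers, 8.84 to 9.74 in control and 8.51 to 9.29 in EKO arrays, had r of 0.968 with Alas1 (rho 0.90, 0.955 within groups) and 0.959 with Alad (rho 0.98, 0.976 within groups), higher than the adipocyte mean over the 8 arrays. Leaving out the 2 arrays most distant from its median gave 0.885 and 0.916. The part of fat or fibroblast RNA in the differences of Alas1 and Alad was not tested. For Alas2 and Fech r was 0.394 and 0.469 with the adipocyte mean and 0.458 and 0.531 with the fibroblast mean. The cytochrome oxidase subunit gene Cox8b, 1 of the markers, had r = 0.950 with Alas1, and read 9.16 on EKO array 2 and 13.89 on control array 3, the lowest and highest arrays for Alas1 too.

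With the adipocyte mean as a covariate the difference was -0.21 (SE 0.06) for Alas1 and -0.07 (SE 0.10) for Alad. It was -0.94 (SE 0.37) for Alas2 and -0.97 (SE 0.33) for Fech. With the fibroblast mean as a covariate, chosen after seeing the data, Alas1 differed by -0.04 (SE 0.09), Alad by 0.15 (SE 0.09), Alas2 by -0.94 (SE 0.44) and Fech by -0.94 (SE 0.40). With the array median as a covariate Alas1 differed by -0.03 and Alad by 0.18, so that the sign for Alad turns in both settings. EKO array 2 had the highest median of all probe sets (6.24), and there Alas1, Alad and the adipocyte mean were lowest.

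**Figure D3:**
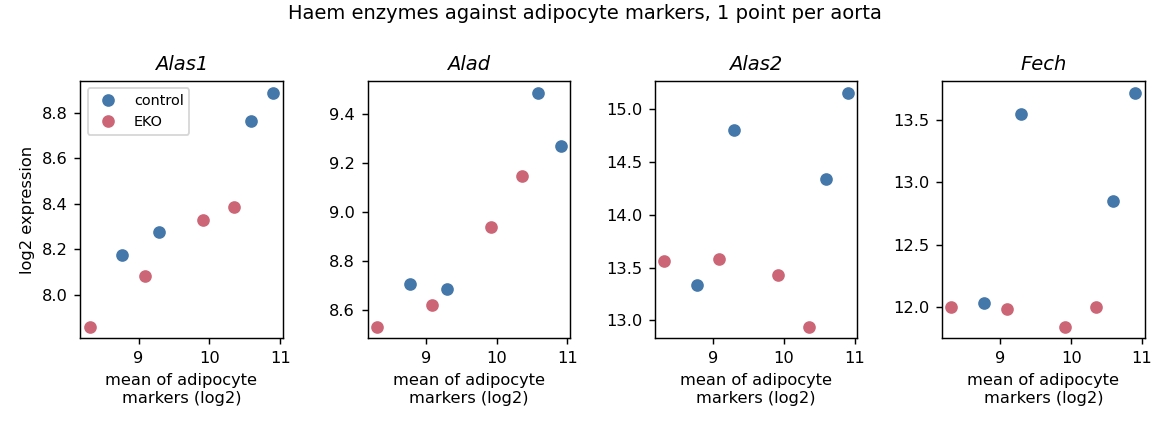
Log2 expression of Alas1, Alad, Alas2 and Fech (vertical axes) against the mean log2 value of 12 adipocyte markers (horizontal axes), 1 point per aorta, control in blue and EKO in red. Alas1 and Alad are higher where the marker mean is higher in both groups (r = 0.937 and 0.934), with lower r for Alas2 and Fech (0.394 and 0.469).

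By the same measure, and named after their values were seen, the genes most like Alas1 were Aoc3 (r = 0.988) and Oxct1 (0.988). Aoc3, for an amine oxidase of adipocytes and smooth muscle, read 6.17 to 7.27 over the arrays. Those values lie below the negative control medians of 7.34 to 7.45, so little can be read from them. Oxct1 lets mitochondria burn ketone bodies. Brd7 (0.986), Bckdhb (0.986), a subunit of mitochondrial branched-chain ketoacid dehydrogenase, and Acsf3 (0.983), a mitochondrial acyl-CoA synthetase gene, came next. Sdhd, a haem-anchoring subunit gene of respiratory complex II, had r = 0.981 over the arrays and 0.999 within groups. Closest to Alad were Tcaim (0.985), the glycolytic aldolase gene Aldoa (0.985), the insulin-signalling kinase gene Akt2 (0.984), the mitochondrial import gene Timm23 (0.984) and the complex I subunit gene Ndufv2 (0.981).

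The remaining 4 enzymes varied little. Urod, which decarboxylates uroporphyrinogen to coproporphyrinogen, read 9.84, 9.85, 9.80 and 9.86 on control arrays and 9.67, 9.63, 9.78 and 9.73 on EKO arrays. All EKO arrays were below all control arrays, by a gap of 0.03, and the means were 9.84 ± 0.02 and 9.70 ± 0.07 (SD, n = 4), a difference of -0.14 (SE 0.06). The control SD of Urod was larger than that of 1.29% of the tested genes.

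Ppox, which oxidises protoporphyrinogen just before iron is added, read 9.58, 9.81, 9.75 and 9.73 on control arrays and 9.66, 9.59, 9.55 and 9.63 on EKO arrays. Control array 1 lay among the EKO arrays, the other control arrays above them, and the difference was -0.11 (SE 0.07). Uros, the uroporphyrinogen III synthase gene, read 6.96 to 7.10 in control and 6.86 to 7.08 in EKO arrays, a difference of -0.06 (SE 0.07). Its values lie below the negative control medians of 7.34 to 7.45, so little can be read from them.

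Cpox, the coproporphyrinogen oxidase gene of the mitochondrial intermembrane space, was the member with a higher EKO mean. It read 7.39, 7.68, 7.37 and 7.58 on control arrays and 7.50, 7.50, 7.69 and 7.49 on EKO arrays. These values lie near the negative control medians, and the difference of 0.04 (SE 0.09) turned sign without control array 3 (-0.003) or EKO array 3 (-0.01) and with the erythroid covariate (-0.06, or -0.09 over the markers above the negative controls). Its r with the erythroid mean was -0.790 (-0.820 within groups), opposite in sign to Alas2 and Fech. Leaving out the 2 arrays most distant from the median of that mean gave -0.456.

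**Figure D4:**
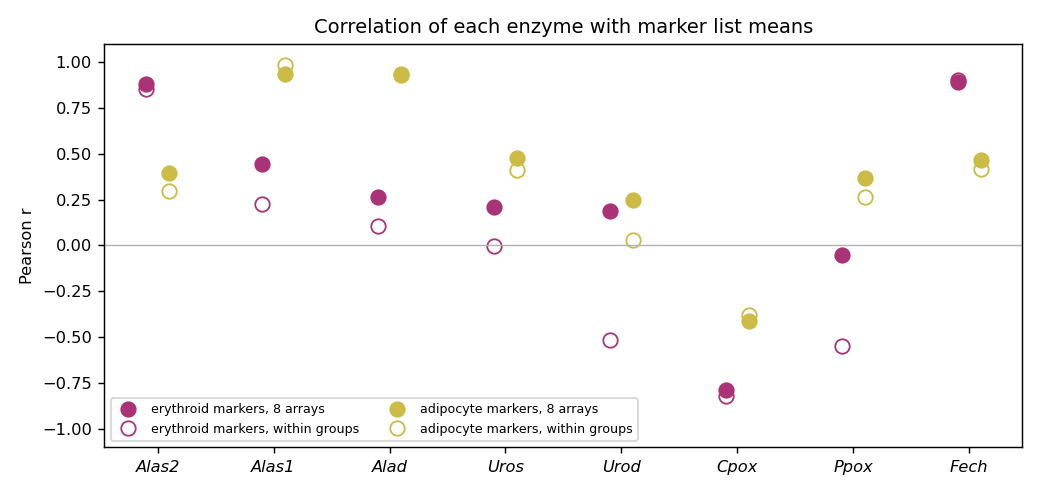
Pearson r (vertical axis) of each enzyme with the mean of 11 erythroid markers (purple) and of 12 adipocyte markers (yellow), over the 8 arrays (filled) and after subtraction of each group's mean (open). Alas2 and Fech lie at 0.879 and 0.892 for erythroid markers, Alas1 and Alad at 0.937 and 0.934 for adipocyte markers, and Cpox below 0 for both.

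Counted over all 8 enzymes, 7 had a lower EKO mean, where 55.1% of the tested genes did, and the median difference was -0.18 beside -0.02. The groups did not overlap for 2, Urod and Fech, both with all EKO arrays lower, where this held for 2.67% of the tested genes. For 0 of the 8 were all EKO arrays higher, which held for 3.41% of the tested genes. Since the set was chosen with this contrast in view, nothing is read from these counts. Limma called 0% of all tested genes.

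Genes of haem precursor transport and mitochondrial iron, a list that includes iron-sulphur cluster assembly, had lower EKO means in 11 of 12 tested. The median was -0.22, and 0 passed limma's threshold. Among the 10 above the highest negative control median 9 were lower, with a median of -0.23. Isca1, for iron-sulphur cluster assembly, read 9.74, 8.89, 10.10 and 9.67 on control arrays and 8.74, 8.65, 8.95 and 9.25 on EKO arrays. The difference was -0.70 (SE 0.25, adjusted p = 0.528), control array 2 again lay with the EKO arrays, and r with Alas2 was 0.924. The mitochondrial carrier Slc25a39 differed by -0.53 (SE 0.23, adjusted p = 0.556; r with Fech 0.910). Glrx5, a glutaredoxin of iron-sulphur assembly, differed by -0.44 and Tmem14c, the porphyrinogen importer needed for erythroid haem, by -0.24. These last genes were nearer to Alas1 (r = 0.927 and 0.953) than to Alas2 (0.753 and 0.705). Slc25a37, the erythroid mitoferrin, named after its values were seen, had r = 0.394 with Alas2 and differed by -0.24 (SE 0.38).

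Genes of haem export, uptake and breakdown were lower in mean in 5 of 7 tested, with a median of -0.11 and 0 calls. Slc48a1, which moves haem out of endolysosomes, read 11.07, 11.17, 11.58 and 11.43 on control arrays and 10.70, 10.78, 10.82 and 11.04 on EKO arrays. Its groups did not overlap, the difference was -0.48 (SE 0.13), and it did not pass (limma adjusted p = 0.499). The biliverdin reductase Blvrb differed by -0.18, the haem-binding Pgrmc1 by -0.11 and the haem exporter Flvcr1 by -0.14. Hmox1, the inducible haem oxygenase, was below the filter on level.

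Genes of iron uptake, storage and sensing had a median of -0.01, with 7 of 12 lower in mean and 0 calls. Among the 9 above the highest negative control median 6 were lower, with a median of -0.07. Ncoa4, the receptor that sends ferritin to autophagy, read 10.83, 10.00, 11.02 and 10.75 on control arrays and 10.04, 9.93, 10.03 and 10.06 on EKO arrays. Like Fech it was spread in control and tight in EKO arrays, with control array 2 at the EKO level, and its r with Fech was 0.970. It differed by -0.64 (SE 0.20, limma adjusted p = 0.511). The ferritin genes Fth1 and Ftl1 differed by -0.15 and -0.23, and Hamp, for the iron hormone hepcidin and below the negative control medians, by 0.25.

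**Figure D5:**
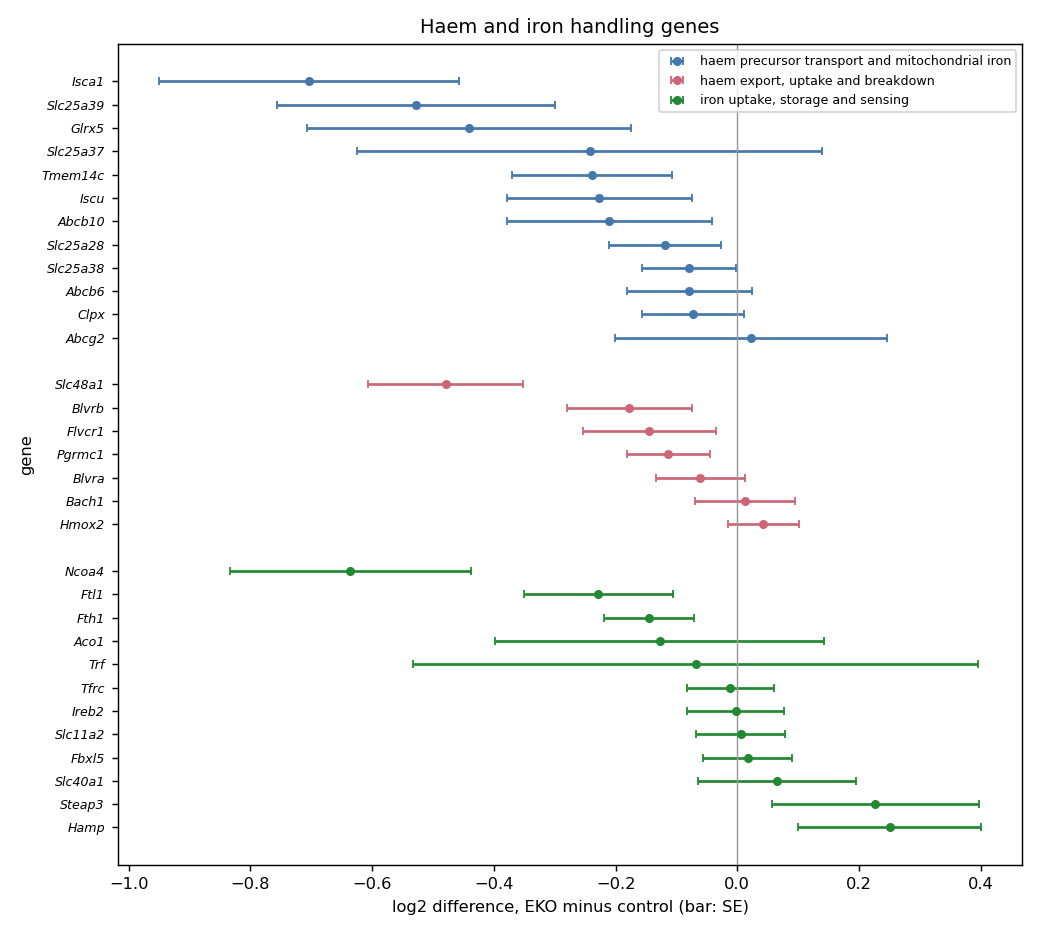
Log2 difference, EKO minus control, with its SE (horizontal axis) for each tested gene (vertical axis) of 3 lists of haem and iron handling. Isca1 (-0.70), Ncoa4 (-0.64), Slc25a39 (-0.53) and Slc48a1 (-0.48) lie farthest to the left, and 0 of these genes passed the adjusted threshold.

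Known regulators of the first step had lower EKO means in 10 of 11 tested, with a median of -0.07, and 0 passed. Ppargc1a, the coactivator that induces Alas1, differed by -0.45 (SE 0.21, limma adjusted p = 0.567) and had r = 0.882 with Alas1, beside 0.937 for the adipocyte mean. Of the erythroid regulators, Tal1 differed by -0.11 and Ldb1 by -0.09, and Gata1 and Klf1 were below the filter. The nuclear receptor Nr1d2, a clock component, differed by 0.17 and had r = -0.759 with Alas1 and -0.851 with Alad.

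Beside the erythroid, adipocyte and fibroblast lists, the means of the other marker lists had r between -0.215 and 0.695 with Alas1 and Alad. With Alas2 their r ran from -0.612 (smooth muscle) to 0.560 (platelet, 0.661 within groups). With Fech it ran from -0.450 (smooth muscle) to 0.484 (macrophage, 0.704 within groups). Neutrophil markers were higher in mean in 5 of 5 tested, led by S100a8 (1.15) and S100a9 (1.13), with smaller values for Ngp (0.64) and Ltf (0.13). Without EKO array 2 these differences were 0.29, 0.40, -0.06 and 0.02, and that of Retnlg went from 0.46 to 0.003. Their list mean had r = -0.003 with Alas2. Fibroblast markers were lower in 4 of 5, with Pi16 at -0.75, Dcn at -0.60, Dpt at -0.56 and Lum at -0.41. Col1a1, the other gene of the fibroblast mean, was below the negative control medians. Among platelet genes Ppbp differed by -0.88 (SE 1.02), Pf4 by -0.17, Clec1b by 0.12 and Itga2b by -0.06. In smooth muscle markers Acta2 differed by 0.74, Tagln by 0.61, Cnn1 by -0.14 and Mylk by 0.07. Endothelial markers had a median of 0.01, with Tek at -0.11, Robo4 at 0.17, Cdh5 at 0.08 and Kdr at 0.11. Among macrophage markers Adgre1 differed by -0.40, Csf1r by 0.44, Cd68 by 0.17 and Mrc1 by -0.05, and among lymphocyte markers Cd3d by 0.20, Cd3e by 0.23 and Cd79a by -0.06. Adipocyte markers were lower in mean in 10 of 12, with Cox8b at -1.05, Adipoq at -0.67, Fabp4 at -0.45 and Prdm16 at -0.36. Elovl3, Plin5 and Retn, which are part of the adipocyte mean, were no higher than the highest negative control median. The 9 others were all lower, with a median of -0.65. None passed limma's threshold. Of the genes in this paragraph Ngp, Ltf, Retnlg, Itga2b, Cnn1, Mylk, Robo4, Kdr, Adgre1, Csf1r, Mrc1 and the 3 lymphocyte markers had means no higher than the highest negative control median, so little can be read from their differences.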

How the data were processed

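Each of the 8 arrays came as log2 values of its transcript clusters, which per the labels the authors computed in Expression Console (SST-RMA). RMA methods bring arrays to a common distribution, so overall differences in signal cannot be seen. The version and genome build are not given in the sources used here. RNA input was 5 ng per array. Precision is limited by having 4 arrays a group.

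Of 72688 probe sets 30604 carried 1 gene symbol, repeats counted once, and 1135 symbols were updated through RefSeq. The probe set with the highest mean stood for a symbol. Genes above 6.14, the median of the probe set means, were tested between groups by limma (version 3.58.1, R 4.3.3) without covariates, with Benjamini-Hochberg adjustment, and the script was tested on simulated data. Correlations are Pearson's and Spearman's. Named are Mef2c, the 8 enzymes, up to 4 genes of each list by smallest p (8 of the erythroid markers) and the 5 genes most like Alas2 and Fech, with predicted and clone symbols passed over. Any other gene was named after its values were seen. The members and lists were chosen with earlier results of these data known. The labels give no batch or date. Alternatives covered filter, probe set, scaling, variance model, weights, block, covariates (2 of them chosen after seeing the data) and single arrays left out.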

Additional observations from a re-analysis of the deposited data

Results flagged for a closer look

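Of 170 groups of 4 values examined, 11 held an array whose gap to its nearest neighbour took up most of the group's range, which chance gives in about 1 in 20. Fech read 11.84 on EKO array 4 against 11.98 to 12.00 on the other EKO arrays, a small step in a tight group. Cpox read 7.69 on EKO array 3 against 7.49 to 7.50, and without that array its difference turned sign. Mkrn1 read 11.30 on EKO array 2 against 11.00 to 11.03.

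EKO array 2 was also apart for Hamp (7.34 against 6.72 to 6.82), Ngp (8.60 against 5.56 to 6.05), Cd3e (7.61 against 6.26 to 6.43) and the mean of the lymphocyte markers (7.15 against 6.41 to 6.45). Control array 2 was apart for the macrophage marker mean (6.97 against 7.63 to 7.72), Cdh5 (16.23 against 16.40 to 16.42) and Pgrmc1 (11.02 against 11.17 to 11.19). Ptgis read 12.34 on EKO array 1 against 11.99 to 12.04.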

How the results depend on the processing

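Limma called 0 genes under each of 23 alternatives at an adjusted p of 0.05 (smallest adjusted p 0.169) and 0 at 0.1, and 0 of the related and marker genes under 22. At an unadjusted p of 0.05 it gave 1449. The number of enzymes with a lower EKO mean was 5 to 8 over 23 alternatives, and 7 to 8 with single arrays left out. Alas2 and Fech, chosen for being lower in this contrast, ran between -1.38 and -0.41 and between -1.41 and -0.50 over 22 alternatives. Those of filter, probe set, variance model and block could not change either difference, which stayed at -1.02 and -1.08. The count of alternatives is therefore not read as support. The smallest differences came with the covariate of 6 erythroid markers above the negative controls, chosen with the fibroblast covariate after seeing the data, and the largest without control array 2. Alas1 ran from -0.48 to -0.03, and Alad from -0.34 to 0.18. The r of Alas2 and Fech was 0.927 to 0.988 with single arrays left out. Uros turned to 0.004 with the array median as a covariate. Same-numbered control and EKO arrays deviated from their group means with correlations of -0.16, 0.21, -0.24 and 0.13. Of the 4 EKO arrays 0 correlated best with their own number. The labels do not say whether the numbers pair the mice, and so few correlations cannot settle it. With the replicate number as a block limma called 0 genes, 7 enzymes were lower and the SE was 0.34 for Alas2 and 0.29 for Fech. Signal over background limits Uros, Cpox, Aoc3, Hbq1a and the marker and related genes with means no higher than the negative controls.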

Other observations

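A further list covers haem proteins of endothelium and fat, which use the product of these enzymes, and also the flavoprotein gene Cyb5r3. Of its 16 tested genes 10 had lower EKO means. The median was -0.08, and 0 passed limma's threshold. Among the 12 above the highest negative control median 9 were lower, with a median of -0.12. The cytochrome c gene Cycs and the cytochrome c1 gene Cyc1, both of the respiratory chain, had r = 0.932 and 0.939 with Alas1 and 0.957 and 0.951 with Alad over the 8 arrays, against 0.379 and 0.395 with Alas2. Cycs read 13.35, 12.94, 15.17 and 15.01 on control arrays and 14.59, 12.70, 13.35 and 14.06 on EKO arrays, highest where Alas1 and Alad were highest. The endothelial nitric oxide synthase gene Nos3 had r = 0.476 with Alas1 and 0.686 with Fech. Cycs, Cyc1 and Nos3 were named after their values were seen.

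By the fixed rule the list's genes were Ptgs2, the inducible prostaglandin synthase (0.58, SE 0.44, limma adjusted p = 0.682), the myoglobin gene Mb (0.27, below the negative control medians), the prostacyclin synthase gene Ptgis (-0.13) and the cytochrome b5 reductase gene Cyb5r3 (-0.11). Aco1, an aconitase that also senses iron, named after its values were seen, had r = 0.854 with Alas1 and 0.936 with Alad.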
